A study of Rattus norvegicus with 3 samples.

Results

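Connexins and pannexins are families of large-pore channel proteins found in the brain. The genes described here are 9 members of these families, Gja1, Gjb6, Gjb2, Gjc3, Gjd2, Gja4, Gja5, Panx1 and Panx2, out of 30957 genes listed in the deposited tables. They were taken by exact gene symbol, and each symbol stood in exactly 1 place in the table of each animal. Messenger RNA was sequenced from motor cortex of 3 male Sprague-Dawley rats, numbered 12, 24-4 and 33 in the labels. All 3 had cerebral ischemia with reperfusion, in which the blood supply of the brain is stopped and then restored, and all 3 received electroacupuncture at the Fengchi point (GB20). The labels give a time of 8 weeks without saying from when it is counted. They do not say how ischemia was made or which hemisphere was taken, and 1 library was made per rat. Sham, untreated and unstimulated rats were not analysed here, so the data give levels and their spread between treated animals and no effect of injury or stimulation.

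Connexins assemble in groups of 6 into a hemichannel, and hemichannels of neighbouring cells dock to form gap junctions, through which ions and small metabolites pass between cells. In cortex, astrocytes are coupled mainly through Gja1 (Cx43) and Gjb6 (Cx30), the connexins of oligodendrocytes include Gjb1 (Cx32) and Gjc3 (Cx29), and neurons, chiefly inhibitory interneurons, form electrical synapses from Gjd2 (Cx36). Endothelial cells use Gja4 (Cx37) and Gja5 (Cx40). Pannexins resemble connexins in membrane topology but work mostly as channels of a single membrane, and Panx1 is known as a release path for ATP.

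Levels are given as FPKM (fragments for each kilobase of a gene and each 1000000 fragments of the library), so levels of different genes can be set side by side. The depth of the libraries, estimated from short genes, was 15340000, 17250000 and 13010000 fragments in rats 12, 24-4 and 33. The mitochondrial genome took from 14.4% to 26.6% of all FPKM. Of the marker lists examined, choroid plexus and ependyma genes had the highest median SD between rats (2.21 on the log2 scale): the summed FPKM of the 7 matched genes was 3307 in rat 12, 135 in rat 24-4 and 13020 in rat 33. Of the listed genes, 11974 had an FPKM of 0 in every rat, and the ribosomal protein genes Rps6 and Rpl8, which every cell uses, are among them (named after their values were seen), so a gene is described below only as listed at 0.

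Expression of the family was led by the astrocyte connexin Gja1, followed by Panx2 and the oligodendrocyte connexin Gjc3. The 3 leading genes had mean FPKM values of 122, 49.4 and 28.7. Gjb6 followed at 7.64, Panx1 at 4.94, Gjd2 at 3.12, Gjb2 at 2.93, Gja4 at 2.31 and Gja5 at 0.504. Gja1 held the first place and Gja5 the last in every rat. Neighbours in this order were not always separated: Panx2 and Gjc3, Gjb6 and Panx1, Gjd2 and Gjb2, and Gjb2 and Gja4 had overlapping FPKM ranges over the rats, as did Gjd2 and Gja4. Among 36 pairs of the 9 genes, these 5 overlapped.

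**Figure D1:**
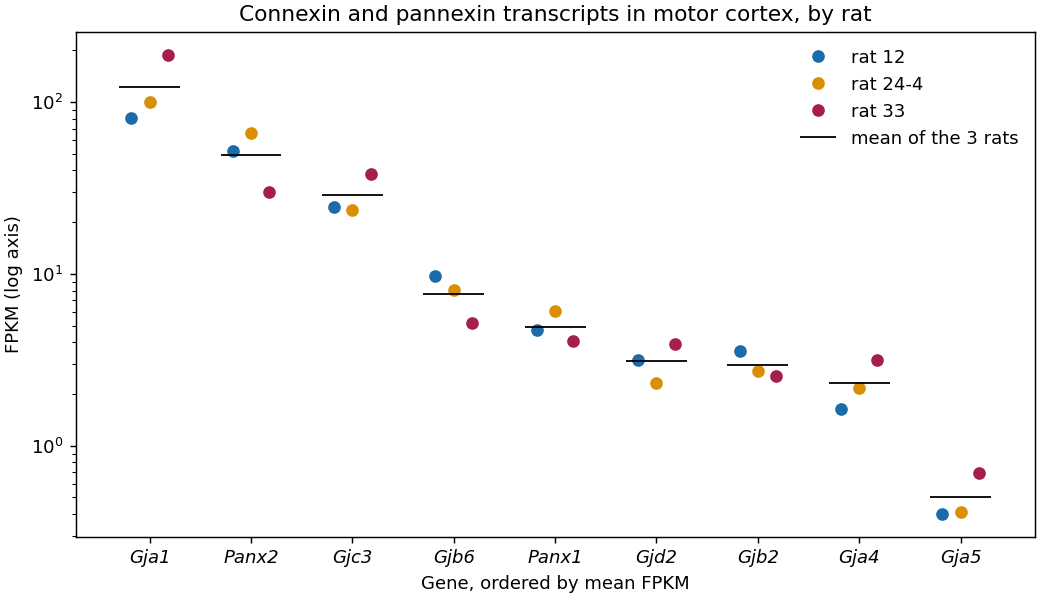
FPKM of each connexin and pannexin gene (log axis) in motor cortex of rats 12, 24-4 and 33; points are single rats and the line is their mean. Gja1 has the highest point of the 9 genes in every rat, and Gja5 lies below 1 in every rat.

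The spread of each gene over the 3 animals was tested against the spread usual for its expression level, and none of the 8 genes tested passed. Values were analysed as log2(FPKM + 1), a scale that understates differences of genes with low FPKM, and tested with limma in the 13754 genes whose FPKM averaged 1 or more. Of the 9 genes, 8 reached that level, and Gja5 did not. Of the 8, 0 had an adjusted p under 0.05 and 0 an unadjusted p under 0.05. Among all genes tested, 0.102% passed the adjusted threshold and 5.96% the unadjusted one. The lowest unadjusted limma p was 0.145 for Gja1, with an adjusted p of 0.978, and Panx2 followed with 0.151 and 0.983. The median SD of the 8 genes over the rats was 0.35 on the log2 scale, and that of all genes tested was 0.32. With 3 rats, a p that misses the threshold does not show that the animals were alike, and the differences below are descriptions.

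The astrocyte connexins did not share an order of rats. Gja1 (ENSRNOG00000000805, chromosome 20, 37876650 to 37889089, plus strand, Rnor_6.0) measured 80.2 FPKM in rat 12, 99.9 FPKM in rat 24-4 and 187 FPKM in rat 33. Its level in rat 33 was thus 2.33 times that in rat 12, and its mean lay at percentile 96.4 of the genes tested. Gjb6 (ENSRNOG00000022116, chromosome 15, 37400889 to 37410848, minus strand) had 9.69, 8.03 and 5.20 in rats 12, 24-4 and 33. Rat 33, which had the highest Gja1, had the lowest Gjb6, at 0.536 times the level of rat 12. Gjb2 (Cx26; ENSRNOG00000008855, chromosome 15, 37377316 to 37383277, minus strand), a connexin of astrocytes and of the leptomeninges, had 3.55, 2.71 and 2.54, and was again lowest in rat 33. When mitochondrial genes were removed before scaling, Gjb2 was lowest in rat 24-4, while Gja1 stayed highest and Gjb6 lowest in rat 33.

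The ratio of Gja1 to Gjb6 had a larger SD between the animals than either gene. Gja1 transcripts were 8.28 times those of Gjb6 in rat 12, 12.4 times in rat 24-4 and 36.05 times in rat 33. On the log2(FPKM + 1) scale the difference was 2.93, 3.48 and 4.93, a mean of 3.78 ± 1.03 (SD, n = 3 rats, here and below). Gjb6 exceeded Gjb2, its neighbour on chromosome 15, by 1.11 ± 0.26, with differences of 1.23, 1.28 and 0.81. The sign was the same in all 3 rats for both pairs.

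The window upstream of the start is shown for each of the 2 main astrocyte connexin genes, whose levels ordered the rats in opposite ways. The order of Gja1 was that of 21.3% of all genes tested and the order of Gjb6 that of 11.2%. Any link between the windows and these orders was not tested. The sequences are RefSeq's, on assembly GRCr8 and not on the build of the expression tables, and hold the 250 bases before the listed start, 5′ to 3′. They were searched on both strands for the AP-1 motif TGAGTCA and for the GC box GGGCGG, and matches are in capitals. The Gja1 window is chr20:36302314-36302563 on the plus strand, and the Gjb6 window, the first of 2 that RefSeq lists, is chr15:35410139-35410388 on the minus strand.
Gja1: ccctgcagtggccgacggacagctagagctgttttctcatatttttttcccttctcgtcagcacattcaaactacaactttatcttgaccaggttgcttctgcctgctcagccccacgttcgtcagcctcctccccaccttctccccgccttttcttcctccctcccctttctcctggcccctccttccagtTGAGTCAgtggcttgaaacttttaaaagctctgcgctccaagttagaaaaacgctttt
Gjb6: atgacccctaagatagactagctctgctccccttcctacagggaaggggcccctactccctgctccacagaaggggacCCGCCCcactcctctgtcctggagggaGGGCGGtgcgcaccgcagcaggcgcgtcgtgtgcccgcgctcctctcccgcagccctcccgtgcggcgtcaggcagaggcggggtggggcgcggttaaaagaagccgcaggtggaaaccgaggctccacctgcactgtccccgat
The Gja1 window held 1 AP-1 match, 58 bases before the start, and no GC box. The Gjb6 window held no AP-1 match and 2 GC boxes, 172 and 145 bases before the start. An AP-1 match stood in 4.05% and a GC box in 30.5% of 33469 windows of the same length. Windows were found for 9 of 9 genes, and none of the other 8 genes had an AP-1 match. A GC box stood in a window of 7 of the 9 genes, in all but Gja1 and Gjc3, so it does not set Gjb6 apart from most of them. Binding and chromatin were not measured in these samples, so a match describes letters only.

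Relative to astrocyte markers, Gja1 had a smaller SD between rats than on its own, and Gjb6 and Gjb2 had a larger one. The list held 10 genes, all matched and none at 0, with a summed FPKM of 1375, 2344 and 3075 in rats 12, 24-4 and 33. S100b, a calcium-binding protein, had a mean of 750.1 and Gfap, the intermediate filament of astrocytes, had 931, while Sox9 was lowest at 7.51. Of the 10 markers, 7 were highest in rat 33 (42.0% of all genes tested were) and 3 in rat 24-4 (34.2%). Slc1a2, Aldoc and Kcnj10 had SDs of only 0.14, 0.15 and 0.19, and Aldoc was lowest in rat 33. In every rat the median lay midway between Slc1a3 (29.7, 30.2 and 111 FPKM in rats 12, 24-4 and 33) and Kcnj10 (50.3, 41.0 and 52.9). Gja1 lay above the median of this list by 1.03, 1.48 and 1.28, an SD of 0.22, compared with an SD of 0.63 for Gja1 itself. Gjb6 lay below it by values of -1.89, -2.00 and -3.65, an SD of 0.98 compared with 0.40 for Gjb6 alone. Gjb2 differed from it by -3.12, -3.29 and -4.46. In bulk tissue, fewer cells of a type and less RNA per cell cannot be told apart.

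Gjb2 and Gjb6 are also made by cells of the meninges. Markers of that tissue were highest in rat 33 for 6 of the 7 tested, beside 42.0% of all genes tested. The summed FPKM of the 9 matched meninges and fibroblast markers was 1012, 686 and 1201 in rats 12, 24-4 and 33, with Col1a2, a collagen gene, listed at 0. Ptgds, a prostaglandin synthase, and the growth factor gene Igf2 had the highest means (864 and 46.4). The remaining tested marker, Slc6a20, had 6.36, 5.69 and 5.55 in rats 12, 24-4 and 33, the same order of rats as Gjb6 and Gjb2. Slc47a1, which was not tested, had 1.10, 0.890 and 0.668. The median of the list was the value of Slc6a20 in rat 12 and of Col1a1 in rats 24-4 and 33. Col1a1 had 5.97, 6.37 and 24.5. Gjb2 minus the median of this list was -0.69, -0.99 and -2.85. For Gjb6 the difference was 0.54 and 0.29 in rats 12 and 24-4 and -2.04 in rat 33. The part of meninges in the levels of these genes was not tested.

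**Figure D2:**
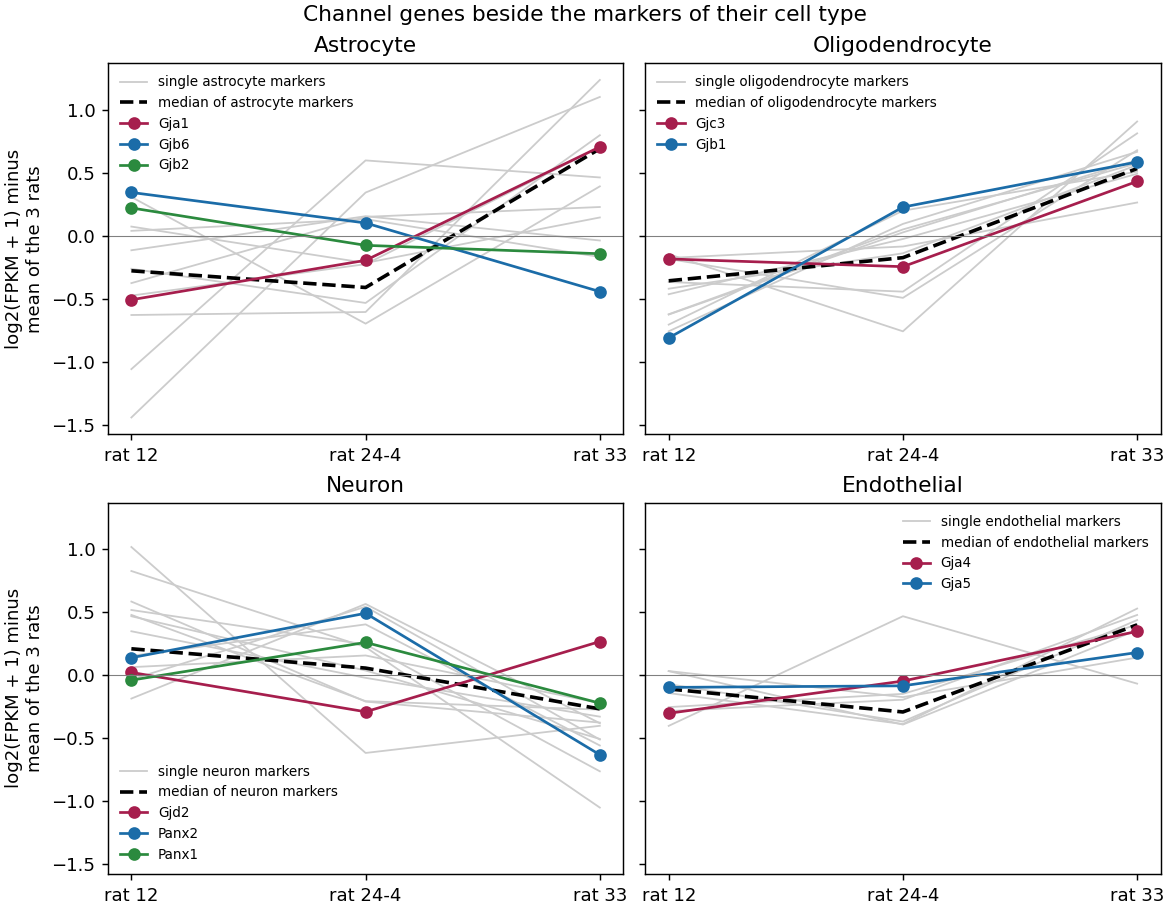
log2(FPKM + 1) of channel genes minus the mean of the 3 rats, in panels for 4 cell types; grey lines are single markers, the dashed line is their median, and coloured lines join the values of 1 gene without implying an order of rats. Gja1 lies close to the astrocyte median in rat 33 while Gjb6 lies below 0, and Gjd2 is above 0 in rat 33 where the neuron median is below 0.

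The oligodendrocyte connexins Gjc3 and Gjb1 were highest in rat 33, as were the markers of that cell type and 42.0% of all genes tested. Gjc3 (ENSRNOG00000001329, chromosome 12, 19166239 to 19167015, minus strand) measured 24.6 FPKM in rat 12, 23.5 FPKM in rat 24-4 and 38.2 FPKM in rat 33. Its locus in the table spans 777 bases, a multiple of 3. At the estimated depth this level corresponds to 293, 315 and 386 fragments. The exact 95% Poisson intervals, which cover counting error only, are 21.8 to 27.6, 21.0 to 26.2 and 34.5 to 42.2 FPKM. Rats 12 and 24-4 thus overlap within counting error and rat 33 lies above both.

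All 10 oligodendrocyte markers were matched, with a summed FPKM of 5915, 7757 and 13306 in rats 12, 24-4 and 33, led by Mbp (3821), a structural protein of myelin, with Ermn lowest (78.1). Gjc3 minus their median was -3.12, -3.37 and -3.40, an SD of 0.15, where Gjc3 alone had an SD of 0.37. Gjb1, another oligodendrocyte connexin, had 5.97, 13.3 and 17.3 in rats 12, 24-4 and 33. It was lowest in rat 12 and highest in rat 33, by a factor of 2.90. Its limma unadjusted p was 0.0557, with a Benjamini-Hochberg adjusted p of 0.855. Gjc3 had a higher FPKM than Gjb1 in every rat.

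The neuronal connexin and the pannexins differed in which rat was high. Gjd2 (ENSRNOG00000008337, chromosome 3, 105467480 to 105470475, minus strand) had an FPKM of 3.13, 2.33 and 3.90 in rats 12, 24-4 and 33. Panx2 (ENSRNOG00000055530, chromosome 7, 130042947 to 130053032, plus strand), the pannexin known for its high expression in brain, had 51.8, 66.5 and 30.0. Panx1 (ENSRNOG00000010060, chromosome 8, 13566739 to 13606040, minus strand), which is found in neurons, glia and vessels, had 4.72, 6.04 and 4.04. Both pannexins were highest in rat 24-4 and lowest in rat 33, whereas Gjd2 was highest in rat 33.

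Markers of neurons were mostly lowest in rat 33, in 10 of 11 genes, beside 28.9% of all genes tested. Their summed FPKM was 3783, 2975 and 1967 in rats 12, 24-4 and 33, none was listed at 0, and Nrgn and Snap25, proteins of the synapse, had the highest means (694 and 665), with Slc32a1, the vesicular GABA transporter, lowest (28.96). Panx2 minus their median was -1.98, -1.47 and -2.27, and Panx1 minus it was -5.18, -4.73 and -4.89. Gjd2 minus it was -5.65, -5.81 and -4.93, so its distance was smallest in rat 33. Against 5 markers of parvalbumin and somatostatin interneurons, whose summed FPKM was 356, 429 and 205, Gjd2 differed by -3.27, -2.99 and -1.53. In that list Sst had a mean of 165, Pvalb of 119 and the transcription factor gene Lhx6 of 3.27. The median of the list was the value of Kcnc1 in every rat (38.9, 25.5 and 13.2 FPKM in rats 12, 24-4 and 33). Of the 5 markers, 4 were lowest in rat 33 (28.9% of all genes tested were), among them Sst with 135 in rat 12 and 125 in rat 33. Lhx6 was lowest in rat 12. The transcript length behind the FPKM of Gjd2 is not given. If it were 1 kb, the exact 95% Poisson intervals would be 2.31 to 4.15, 1.66 to 3.17 and 2.90 to 5.13 FPKM, which overlap between all rats. A longer transcript would give narrower intervals, and overlap is not a test. Whether counting error covers the differences of Gjd2 was therefore not determined.

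Vascular connexins had the lowest levels of the 9 genes on average. Gja4 (ENSRNOG00000014357, chromosome 5, 145374690 to 145377221, minus strand), found in arterial endothelium and smooth muscle, had an FPKM of 1.64, 2.15 and 3.14 in rats 12, 24-4 and 33. Gja5 (ENSRNOG00000017484, chromosome 2, 199162745 to 199184939, plus strand), a connexin of arterial endothelium, had 0.402, 0.414 and 0.698. Both were highest in rat 33. For Gja5 this amounts to 6.16, 7.14 and 9.08 fragments per kilobase. With a transcript of 1 kb the exact 95% Poisson intervals would be 0.150 to 0.866, 0.168 to 0.847 and 0.320 to 1.32 FPKM, which overlap between all rats. The transcript length is not given and a longer one would narrow them, so whether the rats differed beyond counting error was not determined.

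Against 7 matched endothelial markers, with a summed FPKM of 78.9, 101 and 106, Gja4 differed by -1.58, -1.14 and -1.44 and Gja5 by -2.49, -2.30 and -2.72. Cldn5, a tight junction protein, and Slco1a4, an organic anion transporter, had the highest means of that list (46.1 and 13.7), and the VEGF receptor gene Kdr had the lowest (3.32). The 5 arterial endothelial markers summed to 27.6, 28.2 and 28.9 FPKM in rats 12, 24-4 and 33, but single genes differed in opposite directions. Hey1, a target of Notch signalling, had 7.77, 13.6 and 15.2, a mean of 12.2. Efnb2, an ephrin of arteries, had 14.7, 9.91 and 8.87, a mean of 11.2, and Gkn3 was listed at 0. The median of this list was the value of 1 gene, Sema3g, in every rat. Against it Gja4 differed by -1.13, -0.81 and -0.40, a mean of -0.78 that became -0.31 with the list's mean in place of its median. Gja5 differed by -2.05, -1.97 and -1.68, a mean of -1.90 that became -2.99 with a pseudocount of 0.1, and its mean of -2.50 against the endothelial markers became -3.68. Gja4 exceeded Gja5 by 0.91, 1.16 and 1.29 on the log2(FPKM + 1) scale, or 4.08, 5.20 and 4.50 times in FPKM.

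Differences between channel genes had the same sign in every rat for the pairs given next. Gja1 exceeded Gjc3 by 1.99 ± 0.30, Gjd2 by 4.83 ± 0.49 and Gja4 by 5.15 ± 0.31, and Gjc3 exceeded Gjd2 by 2.84 ± 0.19. Gja1 exceeded Panx1 by 4.30 ± 0.80. Panx2 exceeded Panx1 by 3.03 ± 0.36, and the difference Gjd2 minus Panx2 was -3.56 ± 0.85. The 10 pairs chosen for report, which include Gja1 with Gjb6, Gjb6 with Gjb2 and Gja4 with Gja5 above, each gave an exact two-sided sign-flip p of 0.25, the smallest that 3 rats allow, so none could pass 0.05. Adjusted over 36 pairs by Benjamini-Hochberg, the lowest value was 0.273. In 33 of the 36 pairs the sign was the same in all rats. The exceptions were Panx2 minus Gjc3 (1.05, 1.46 and -0.34 in rats 12, 24-4 and 33), Gjd2 minus Gjb2 (-0.14, -0.16 and 0.47) and Gjb2 minus Gja4 (0.79, 0.23 and -0.23), each with its odd sign in rat 33.

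**Figure D3:**
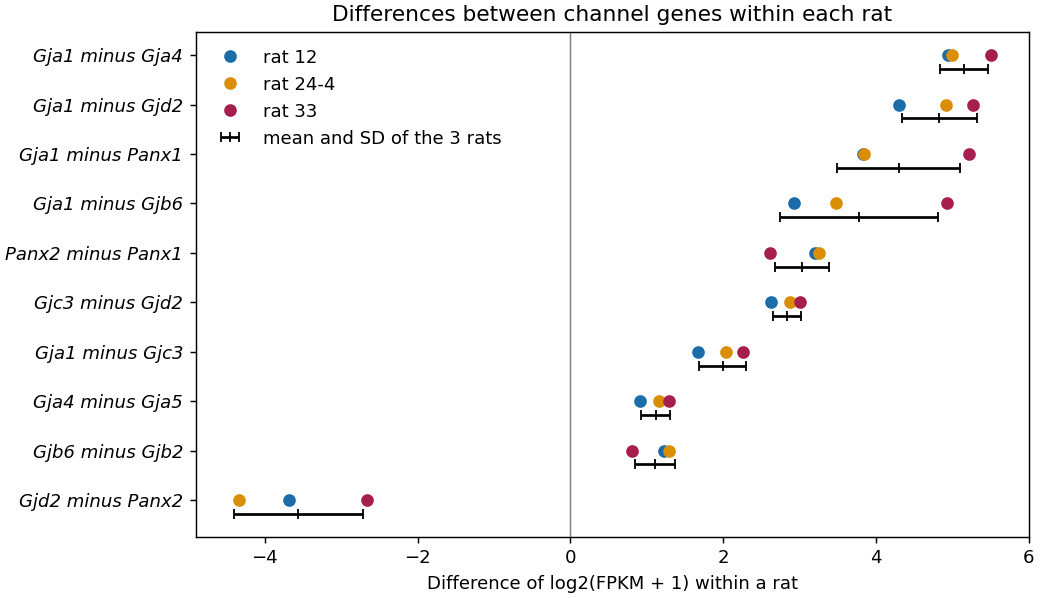
Difference of log2(FPKM + 1) between 2 channel genes within each rat, for 10 pairs; points are single rats, and the bar below them is the mean and SD of the 3 rats. The widest spread is that of Gja1 minus Gjb6, from 2.93 to 4.93.

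Genes classed as astrocyte connexins held most of the transcripts of the 7 connexin genes. Gja1, Gjb6 and Gjb2 together made up 75.9%, 79.6% and 80.95% of their summed FPKM in rats 12, 24-4 and 33, a mean of 78.8% ± 2.63. Gjc3 made up 19.9%, 16.9% and 15.8%, Gjd2 2.54%, 1.67% and 1.62%, and the vascular pair 1.66%, 1.85% and 1.59%. The sum itself was 123, 139 and 241 FPKM. The shares are of these 7 genes only, and other connexins are not counted in them. A gene was classed by the cell type it is known from, and bulk tissue does not show which cells made its transcripts.

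**Figure D4:**
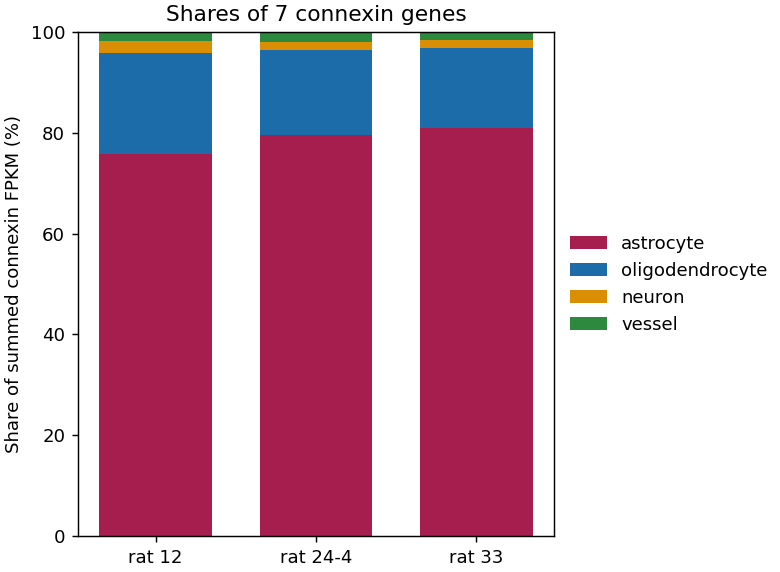
Share of the summed connexin FPKM in percent by cell class in each rat, for 7 connexin genes; bars are single rats and each colour is the class of cell the genes are known from. The astrocyte class takes between 75.9% and 80.95% of a bar, and the oligodendrocyte class between 15.8% and 19.9%.

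Some other family members were measured as well. Gjc1 (Cx45), a connexin of mural cells and some neurons, had 2.98, 3.56 and 4.00 in rats 12, 24-4 and 33. Gje1 and Panx3 were listed at 0 in all rats, and Gja6 was not matched. Gjb5 had 0, 1 and 2 fragments. Gjd3 had 2, 3 and 0 fragments, and Gja10 had 1 fragment, in rat 12. Gja3 was above 0 in rat 24-4 only (0.0740), and Gjd4 had 0.0600, 0 and 0.212. Gjc1, like Gjb1, was tested, and its limma unadjusted p was 0.845.

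Several of these genes lie in clusters. On chromosome 15 Gjb6 and Gjb2 are 17.6 kb apart with no other listed gene between them, and Gja3, a lens connexin, lies 52.1 kb from Gjb2. On chromosome 5 Gja4 stands 45.1 kb from Gjb5, known mainly from skin, and their mean FPKM was 2.31 and 0.0864. No other listed gene overlapped any of the 9 loci.

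Partners of gap junctions had means from 2.15 to 134 FPKM. The list of scaffolds, adhesion molecules, kinases and glial membrane partners had 15 matched genes of 16, all tested, of which 0 passed limma's adjusted threshold and 1 (Nov) had an unadjusted p under 0.05. Mlc1, a membrane protein of astrocyte endfeet, had the highest mean (134), followed by the ubiquitin ligase gene Nedd4 (112) and Ctnnb1, which encodes β-catenin (112), and Tjp3 was lowest (2.15). Mlc1 had 71.9, 154 and 175 in rats 12, 24-4 and 33, and Hepacam, its adhesion partner, had 26.1, 43.1 and 59.8. Tjp1, the scaffold ZO-1 that binds the tail of Gja1, had 26.0, 19.6 and 39.5. Nov, also called Ccn3, had 38.6, 99.5 and 31.3.

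Other large-pore channels include volume-regulated and calcium homeostasis modulator channels. Of 13 listed, 11 were matched and 7 tested, with 0 passing limma's adjusted threshold and 0 at an unadjusted p under 0.05. Ttyh1 had a mean of 176, the mitochondrial porin gene Vdac1 of 132 and the volume-regulated channel subunit gene Lrrc8b of 22.6, with Calhm3 lowest at 0.153. Their median SD was 0.23 on the log2 scale, beside 0.35 for the 8 tested channel genes and 0.32 for all genes tested, and whether the sets differ was not tested.

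Receptors and enzymes for the ATP that pannexins release had 8 matched genes, of which 6 were tested, 0 passed limma's adjusted threshold and 1, the ectonucleotidase gene Entpd2, had an unadjusted p under 0.05. Entpd2 had 8.51, 21.1 and 29.3 in rats 12, 24-4 and 33 and the highest mean (19.7). P2ry12, a receptor of microglia, had a mean of 18.2 and the ATP-gated channel gene P2rx4 of 12.3. P2rx7, often described as a partner of Panx1, had 5.06, 3.34 and 6.77, which is the reverse of the order of Panx1. Entpd1 was listed at 0 and the lowest gene above 0 was P2ry1 (0.990).

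By rat, 4 of the 8 tested genes were highest in rat 33 (42.0% of all genes tested were), 2 in rat 12 (23.8%) and 2 in rat 24-4 (34.2%). Lowest values fell in rat 33 for 4 of the 8 (28.9% of all), in rat 12 for 2 (37.9%) and in rat 24-4 for 2 (33.3%). The 4 genes highest in rat 33 were Gja1, Gjc3, Gjd2 and Gja4, and the 4 lowest there were Gjb6, Gjb2, Panx1 and Panx2. Of the non-tested Gja5 the highest value was in rat 33 as well.

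The genes whose values over the 3 rats were closest to each channel gene were taken by the root mean square distance of centred log2(FPKM + 1) values. For Gja1 they were Hk2 (distance 0.012) and Crtap (0.016), for Gjb6 Plxna2 (0.0039) and Kcnk12 (0.0041), and for Gjb2 Slc23a2 (0.0077) and Prkci (0.0078). For Gjc3 they were Qk (0.0037) and Bmpr1b (0.0057), for Gjd2 Fbln7 (0.0041) and Erlec1 (0.0076), and for Gja4 Hps1 (0.0037) and Svep1 (0.0068). For Panx2 they were Arfgef3 (0.0068) and Lrfn1 (0.011) and for Panx1 Ctbp1 (0.0011) and St3gal5 (0.0031). With 3 rats such matches are common: between 168 genes (Panx2) and 1163 genes (Panx1) of 13754 lay within a distance of 0.1.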

How the data were processed

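RNA sequencing of motor cortex from 3 rats of 1 group was used. The deposited values are FPKM. The series' design text says that the authors made them with a Perl script, after fragments had been counted for each gene and normalized. The submitters' processing notes name HISAT2 (version 2.0.4), StringTie (version 1.3.0) and the build Rnor_6.0. Neither the kind of normalization nor the use of strand was found in the sources used here.

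Genes were chosen, and lists fixed, with earlier results of these data known. Values were analysed as log2(FPKM + 1). Variability between rats was tested with limma (version 3.58.1, R 4.3.3) in genes whose FPKM averaged 1 or more: an intercept was fitted per gene, and the residual variance over its trended, robust prior variance was compared with the F distribution, one-sided, with Benjamini-Hochberg adjustment over all 13754 genes and a threshold of 0.05. The script was tested on simulated data. Differences between genes within rats used the exact sign-flip test. Differences from marker medians have no test. Whole-multiple values of loci of at most 400 bp gave the depth (91.3% to 92.2% whole within 0.02 of a fragment). A floor of 3 fragments in 1 kb is an FPKM of 0.196, 0.174 and 0.231 in rats 12, 24-4 and 33. Named genes were all members, family genes, and the 3 highest and the lowest of partner lists. Of marker lists set beside a channel gene, the 2 highest and the lowest were named. Genes listed at 0 and the 2 nearest in pattern were named as well. Outside this rule, Hepacam, Tjp1, Nov, P2rx7, Sema3g, Kcnc1, Slc6a20, Slc47a1, Col1a1, Slc1a2, Slc1a3, Aldoc and Kcnj10 were named after their values were seen. Some genes that this rule names, and shares over all connexin genes, are not reported here. Alternatives were another pseudocount, filters, scalings, prior, list means and each rat left out. Other calculations ran in Python (version 3.11.15) with scipy (version 1.17.1).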

Additional observations from a re-analysis of the deposited data

How the results depend on the processing

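The signs of the 10 reported differences between channel genes could not change under the alternatives, so they are no check. A pseudocount or scaling acts alike on both genes of a rat, and each pair already had the same sign in all rats. Only the sizes could move. Gja4 minus Gja5 went from a mean of 1.12 to 1.98 with a pseudocount of 0.1. Without each rat in turn, Gja1 minus Gjb6 ran from 3.20 (without rat 33) to 4.20 (without rat 12). No channel gene that was tested passed limma's adjusted threshold under any of the 9 alternatives (8 genes in 7 of them, and Gja5 as well with a mean FPKM of at least 0.1 and with no filter), although the count over all genes moved from 14 to 23 with a pseudocount of 0.1, 54 with median scaling, and 0 with the mitochondrial genome left out, with a mean FPKM of at least 0.1, with no filter or with a prior that is not robust. Without each rat in turn that count ran from 0 (without rat 24-4) to 104 (without rat 12), with 64 without rat 33; the prior was estimated anew each time, and the cause was not tested. In those settings, in the order given, 820, 943, 606, 903, 864, 733, 655, 869 and 656 genes had an unadjusted p under 0.05. Gjb6 minus the meninges median reversed from a mean of -0.40 to 0.42 without rat 33, and without each rat in turn ran from -0.87 to 0.42. The median log2 level of all genes tested differed by 0.13 between rats. No paired analysis was possible because there is 1 group. Of the other mean differences from markers, 11 values moved by more than 1 SD without changing sign: with a pseudocount of 0.1 Gja5 moved from -2.50 to -3.68 (endothelial) and from -1.90 to -2.99 (arterial), Gja4 from -1.39 to -1.70 (endothelial) and Panx1 from -4.93 to -5.17 (neuron), and the list mean in place of the median moved 7. Depth limits Gja5 most, which had the fewest fragments per kilobase of the 9 genes in every rat.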
